A study of Drosophila melanogaster with 24 samples.

Results

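Among 22575 spots of a microarray for the fruit fly Drosophila melanogaster, 85 spots, or 0.377%, were brighter in female than in male pupae and had an intermediate mean in pupae of mixed sex. They were chosen by their own values: a female mean at least 0.5 log2 units above the male mean, every female value above every male value, and a mixed-sex mean between both. The rule used the pupal samples, so each pupal value below describes the choice and is not a test of it. The samples came from the isogenic line WI89. Each of the 6 groups held 4 samples, of which 2 carried the dye Cy3 and 2 the dye Cy5. Female pupae and male pupae were taken as white prepupae 0 to 1 h after the pupal case formed and were kept for 12 h at 25 °C. The RNA of mixed-sex pupae was female and male pupal RNA combined in equal amounts. Embryos of both sexes came from 24 h of egg laying and so had many ages, and heads and abdomens were dissected from adult males of 24 to 48 h. No treatment or transgene is named for any group. No group of adult females was used here, so nothing outside the pupa shows the level of these probes in females alone. The question behind the series is where splicing is regulated by sex, developmental stage or tissue.

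Sex in the fruit fly is set by a splicing cascade. The RNA-binding protein Sex-lethal is made in females and directs the female splicing of transformer RNA, and the Transformer protein in turn directs the splicing of doublesex and fruitless, which encode transcription factors of sexual development. Some transcripts therefore differ between the sexes in the exons they hold and others in their amount, and a probe can report either. Shortly after the pupal case forms, pulses of the hormone ecdysone start the breakdown of larval tissues and the growth of adult ones. The tables used here name no gene for any spot, so each spot is called a probe and given by its number in spot order, with no role. A gene can be counted through several probes, and a change in amount was not separated from a change in splicing. In whole animals and body parts, fewer cells of a type and less RNA per cell cannot be told apart either.

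The 24 samples lay on 12 arrays of 2 samples, as identical patterns of marked spots showed. By median signal 4 arrays formed a bright class and 8 a dim one. Median signal over local background ran from 5.19 to 144 scanner units over the samples. Of the female pupal samples 3 lay on dim arrays and 1, replicate 4, on a bright one. Of the male pupal samples 1, replicate 1, lay on a dim array and 3 on bright ones. Mixed-sex pupae and embryos had 2 samples on each kind, and all heads and abdomens lay on dim arrays. Whether replicates came from separate animals is not stated. The p-values below therefore rest on a spread that may be technical, and the number of arrays limits the precision.

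The female-higher probes were a smaller and narrower set than their mirror image. The same rule turned toward males found 632 probes. That count was taken only with the main processing, whereas the count of 85 moved with the processing, as given below. On the log2 scale the female minus male difference of the 85 ran from 0.50 to 1.27 with a median of 0.63, whereas the male-higher probes had a median of -0.81 and reached -3.55. Only 22 of the 85 differed by at least 0.75 and 8 by at least 1, against 351 and 206 of the male-higher probes. Bright spots made up most of the 85: 75 lay above the 75th percentile of all spots by mean signal, and none below the median. Their brightness percentiles ran from 54.6 to 99.8 with a median of 92.2. All 85 were above the detection level in each of the 6 groups. Nearly all spots were, from 19596 of 22575 in heads to all 22575 in male pupae. Female and male values were separate by the rule in all 85, an order that 3.78% of all probes had. In limma's model 63 of the 85 had an adjusted p under 0.05 for female minus male pupae, where 0.656% of all probes were called higher in females, but this contrast chose them.

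The number of members rested on a pair of samples. Without female replicate 4, the female sample on a bright array, the rule found 239 probes, all 85 among them. Without male replicate 1, the male sample on a dim array, it found 255, with 82 of the 85. Scaling each sample to its 75th percentile in place of quantile normalization found 50 probes, of which 27 were among the 85. Under that scaling all 85 kept a female mean above the male mean, with a median difference of 0.63, but the female and male values were separate for 29. Under the same scaling the median female minus male difference of all probes was 0.17.

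The level of the 85 followed a descending order from female to mixed-sex to male pupae and was lower again outside the pupa. In female pupae the sample medians over the 85 probes, on the log2 scale, were 7.96, 8.14, 8.13 and 7.80 in replicates 1 to 4. In male pupae they were 7.49, 7.35, 7.31 and 7.20. The mixed-sex samples had medians of 7.40, 7.51, 7.84 and 7.79, so replicate 1 lay in the male range and replicate 3 in the female range. The median in embryos was 6.82 ± 0.10, in heads 6.82 ± 0.14 and in abdomens 6.78 ± 0.03 (SD of the sample medians, n = 4 each), which overlapped each other. The corresponding median of the male-higher probes was 7.53 ± 0.06 in abdomens and 6.10 ± 0.03 in embryos (SD, n = 4 each). For all probes the medians of the group means lay between 6.21 and 6.22.

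**Figure D1:**
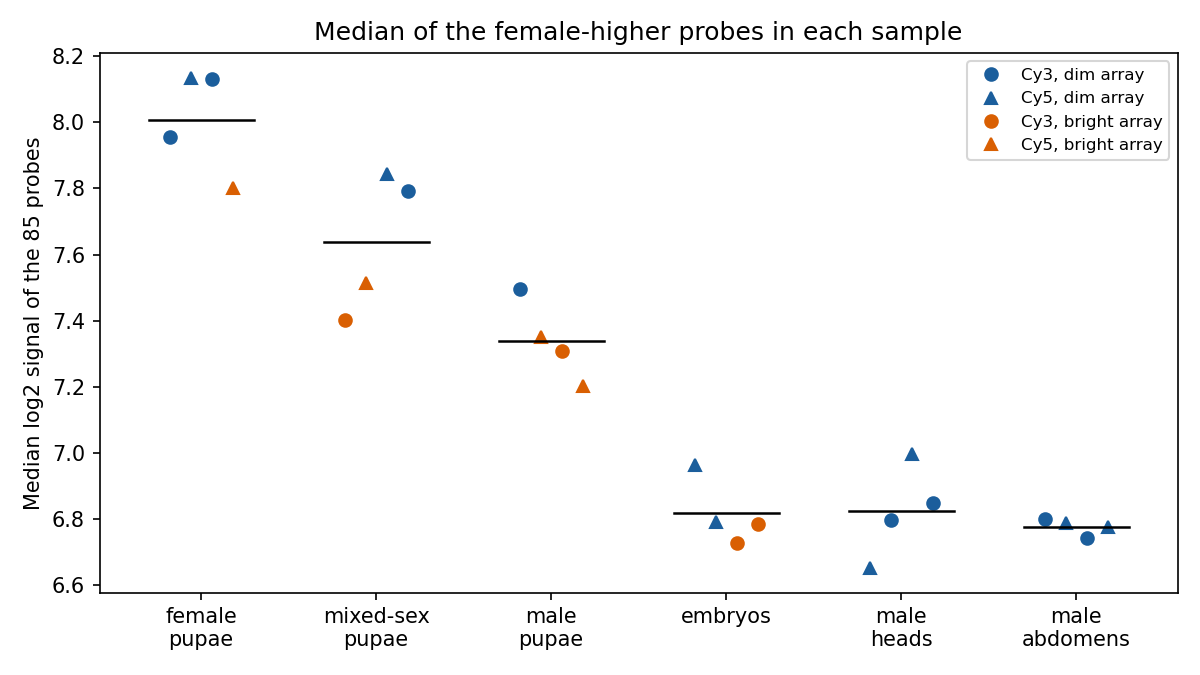
Each point is the median log2 signal (vertical axis) of the 85 female-higher probes in 1 sample, by group, and the bars are means of 4 samples. Circles are Cy3 and triangles Cy5 samples, with dim arrays in blue and bright arrays in orange. The female samples lie between 7.80 and 8.14, the male samples between 7.20 and 7.49, and within the pupal groups the samples of bright arrays lie below those of dim arrays.

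Array brightness moved with the level of these probes inside groups as well as between them. In mixed-sex pupae, where each kind of array held 1 Cy3 and 1 Cy5 sample, the bright samples lay a median of 0.32 log2 units below the dim ones, and 9 of the 85 probes were higher on bright arrays. Over all probes that share was 45.9%. In embryos, whose bright samples were both Cy3 and dim samples both Cy5, the difference was a median of -0.14, with 29 of 85 higher on bright arrays against 49.9% of all probes. The rule puts every female value above every male value, so the direction of the difference is fixed within any choice of arrays. Its median size was 0.60 on dim arrays (3 female samples, 1 male) and 0.49 on bright arrays (1 female sample, 3 male). On the array that held both female replicate 4 and male replicate 3 the median was 0.46, from 0.05 to 1.42. With array brightness and dye as terms the median female minus male difference was 0.53. It was then at least 0.5 for 50 of the 85 and above 0 for all 85, a direction that the rule largely fixes. The part of brightness in the choice of these probes was not tested beyond these values.

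The mixed-sex mean was intermediate for nearly all candidates, but the value of each mixed sample was not. Female, mixed-sex and male pupae had 3, 2 and 1 samples on dim arrays, so mixing and array brightness cannot be told apart in this order. Of 89 probes that met the first 2 conditions, 85 had a mixed-sex mean between the sexes, 1 lay above the females and 3 below the males. For the male-higher probes 632 of 636 lay between. The 4 left out, named after their values were seen, were probe 20225 above the females and probes 15340, 20395 and 20761 below the males. Probe 20225 had 8.07 in female replicate 2 and 8.30 in mixed-sex replicate 4, which shared an array, against 5.92 to 5.97 in the other female samples. Its male values ran from 5.70 to 5.87, 1 of them left out as marked.

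The position of a mixed sample between the male and the female mean was read on the linear scale, where 0 is the male mean, 1 the female mean and 0.5 an equal mixture. Its median over the 85 probes was 0.0857 and 0.187 in mixed-sex replicates 1 and 2, both on bright arrays, and 0.612 and 0.556 in replicates 3 and 4, both on dim arrays. Replicate 1 lay at or below the male mean for 27 of the 84 probes measured there, and replicate 3 at or above the female mean for 22 of 85. All 4 mixed values lay between all male and all female values for 3 of the 85 probes. With the means of the 4 samples the median position was 0.366, and 67 of the 85 lay below an equal mixture. For the male-higher probes the median position on the same scale, where 1 is again the female mean, was 0.388. In mixed-sex replicates 1 to 4 the median position of the male-higher probes was 0.505, 0.513, 0.235 and 0.322. By those probes the samples on bright arrays thus lay nearer the female mean than those on dim arrays, the reverse of the 85. When each kind of array was read alone the mixed-sex mean lay between the sexes for 72 of the 85 on bright arrays, with a median position of 0.231, and for 72 of the 85 on dim arrays, with 0.426.

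**Figure D2:**
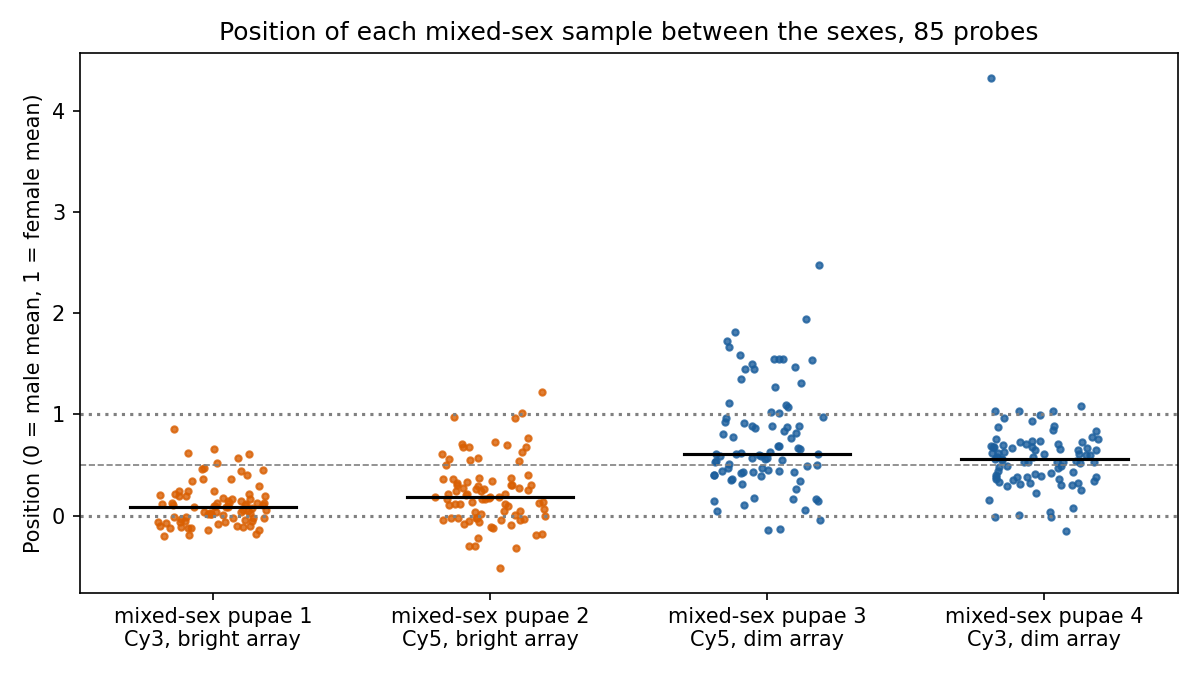
Each point is the position of 1 mixed-sex sample between the male mean (0) and the female mean (1) for 1 of the 85 probes, on the linear scale, and bars are medians over the probes. The medians are 0.0857 and 0.187 on bright arrays (orange) and 0.612 and 0.556 on dim arrays (blue).

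Among the probes with the largest differences, probe 19691 was by far the brightest. Its log2 signal was 12.73, 12.73, 12.05 and 12.17 in female pupae and 11.39, 11.12, 10.97 and 11.11 in male pupae, a difference of 1.27. Mixed-sex pupae had 12.10, 12.05, 11.60 and 12.36, so the mixed and female values overlapped while none reached the males. Abdomens had 11.01, 10.17, 11.45 and 10.24 and heads 8.23, 8.13, 8.47 and 7.83, with no overlap. The probe was higher in abdomens (log2 heads minus abdomens -2.55, SE 0.37, limma adjusted p = 1.07e-05). Its embryos split: 9.21 and 8.45 in the Cy5 samples on dim arrays and 11.14 and 10.88 in the Cy3 samples on bright arrays.

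The probe whose 24 values were most like those of probe 19691 was probe 2637, with a Pearson correlation of 0.986. Probe 2637 differed by 0.74 between the sexes but had 11.52 in female replicate 3 and 11.72 in male replicate 2, an overlap that kept it out of the 85. Likeness here includes what the samples of an array share.

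Probes 8983, 18946, 20998, 1910 and 3960 shared a pattern, seen after their values were known, of pupal values that all lay above those of embryos, heads and abdomens. Probe 8983 had 8.10, 8.40, 8.97 and 7.94 in female, 7.37, 7.25, 7.17 and 6.95 in male and 7.82, 8.07, 8.26 and 8.08 in mixed-sex pupae. Outside the pupa it lay between 5.82 and 6.78 in all 12 samples, below every pupal value. Probe 18946 had 8.27, 8.62, 8.58 and 8.21 in female and 7.52, 7.54, 6.80 and 7.50 in male pupae, with mixed values of 7.81, 8.03, 7.59 and 8.13 in the gap between them. The probe most like it was 1910 (Pearson correlation 0.989 over 24 samples), with a sex difference of 1.01 and means of 8.27 in female, 7.26 in male and 5.95 in embryo samples.

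Probes 20998 and 3960 were the brightest of these 5 probes. Probe 20998 had 9.80, 10.31, 10.34 and 10.07 in female, 9.27, 8.73, 9.29 and 9.16 in male and 9.67, 9.50, 9.66 and 9.92 in mixed-sex pupae, so only mixed replicate 4 entered the female range. Probe 3960 was the most like it over the 24 samples, with a Pearson correlation of 0.990 and a mean absolute difference of 0.15. Its means were 10.18 ± 0.16 in female, 9.72 ± 0.11 in mixed-sex and 9.17 ± 0.30 in male pupae (SD, n = 4 each). The probes of this near-identical pair lie far apart on the array, in row 98 and row 19. Of these 5 probes, 2 were called different between embryos and abdomens, as were 25.7% of all probes. They were probe 20998 by -0.59 (SE 0.20, limma adjusted p = 0.0352) and probe 3960 by -0.62 (SE 0.22, limma adjusted p = 0.0403), both with overlapping values. Probes 8983 (-0.47, limma adjusted p = 0.0531) and 18946 (-0.45, limma adjusted p = 0.0519) had separate values but just missed the threshold. Probe 1910 differed by -0.30 (limma adjusted p = 0.15).

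Probes 15032 and 15639 showed another pattern, with embryo levels near those of female pupae. Probe 15032 had 8.25, 8.97, 8.55 and 8.06 in female pupae, 7.58, 7.31, 6.95 and 7.35 in male pupae and 8.20, 8.06, 7.77 and 7.77 in embryos, so the embryos overlapped the females and lay above the males. Heads had 6.36, 6.32, 6.48 and 6.38 and abdomens 6.75, 6.88, 7.00 and 6.75. Embryos exceeded heads by 1.57 (SE 0.21, limma adjusted p = 8.53e-06) and abdomens by 1.11 (SE 0.21, limma adjusted p = 0.000339).

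Probe 15639 ran in parallel, with a Pearson correlation of 0.988 with probe 15032. Its embryos exceeded heads by 1.50 (SE 0.20, limma adjusted p = 5.04e-06) and abdomens by 1.01 (SE 0.20, limma adjusted p = 0.000346). In both probes mixed-sex replicate 3 was far above the other mixed samples, at 8.84 for 15032 and 9.11 for 15639, and reached the female range. Probe 7795, with a sex difference of 0.92, followed both, with Pearson correlations of 0.963 and 0.957.

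**Figure D3:**
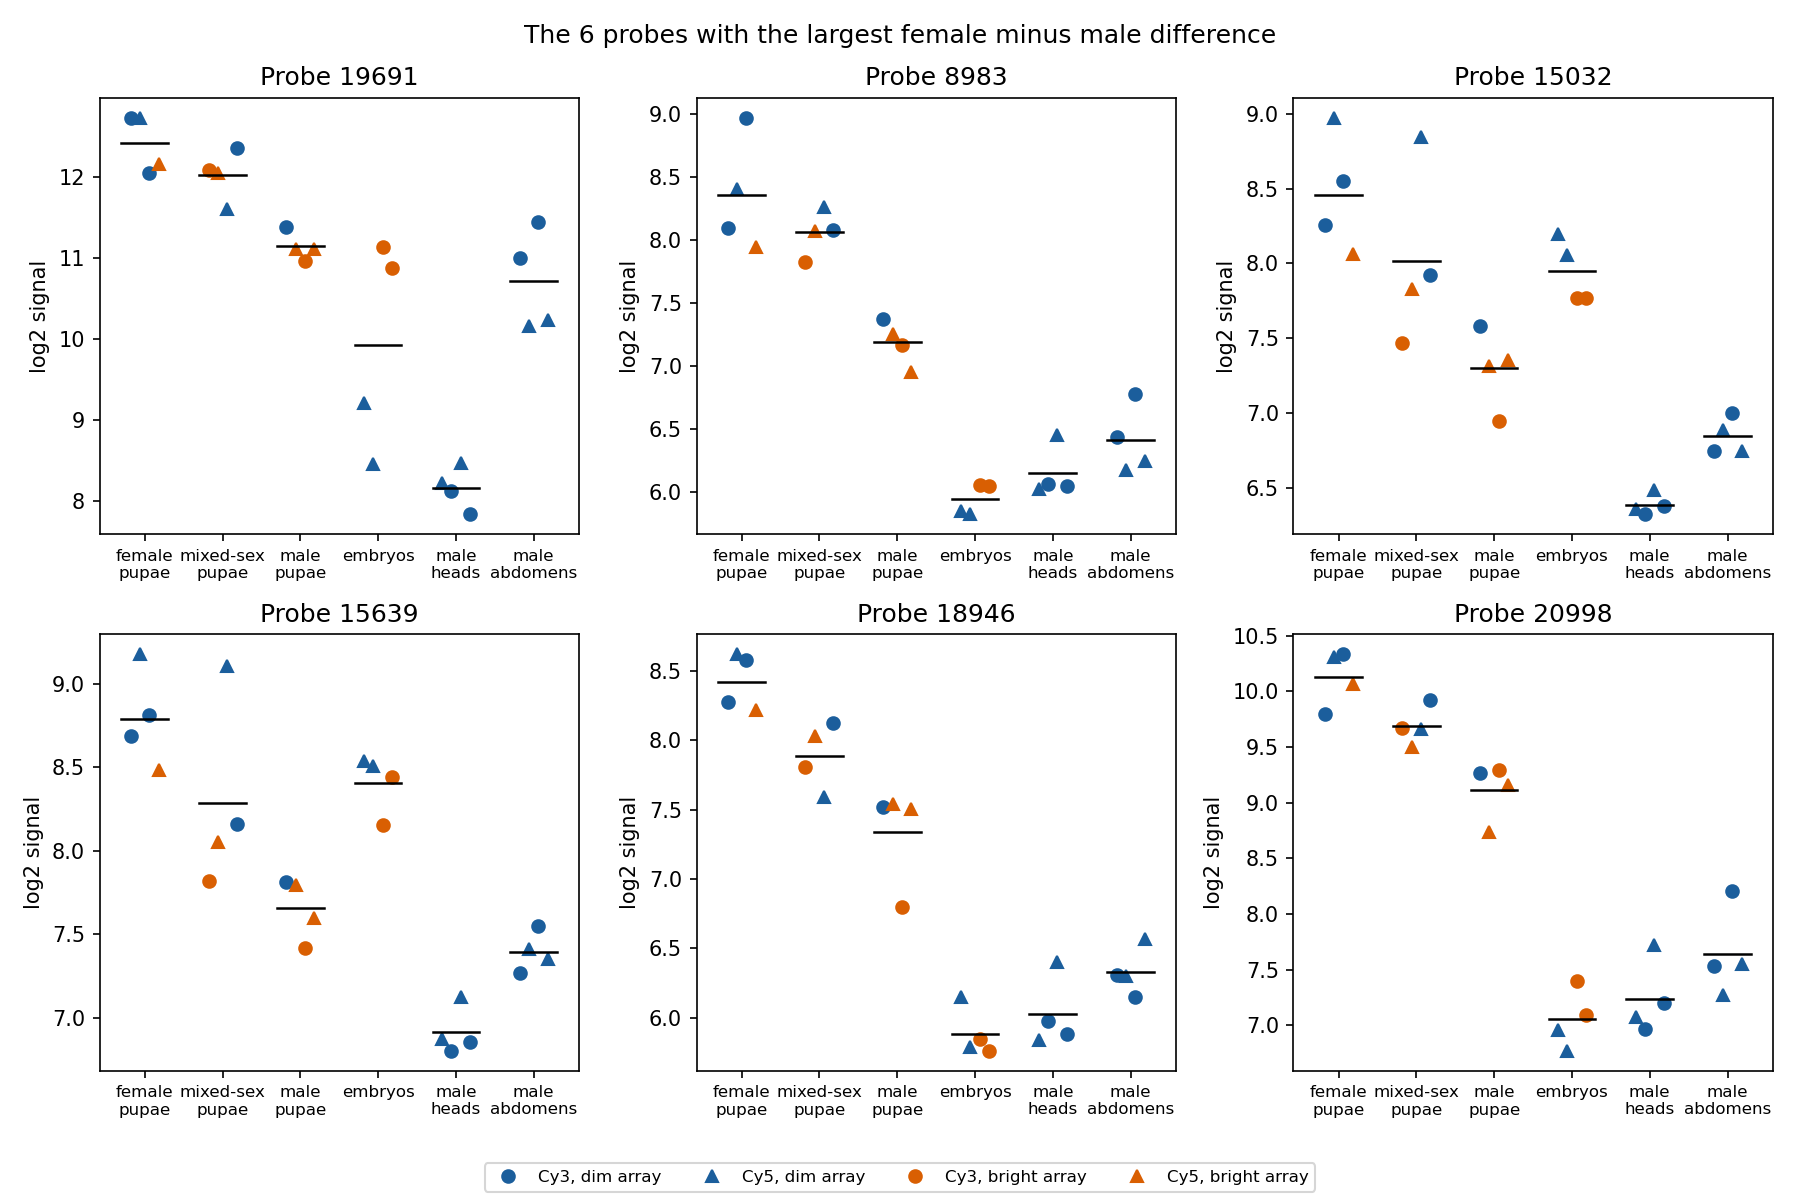
The log2 signal of each sample (vertical axis, with its own range in each panel) is shown by group for the 6 probes with the largest female minus male difference. Bars are group means, circles Cy3, triangles Cy5, blue dim and orange bright arrays. Probes 8983, 18946 and 20998 are high in pupae and low elsewhere, while probes 15032 and 15639 have embryo means of 7.95 and 8.41.

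At the threshold of the rule, members and non-members had nearly equal differences. Probe 12962 had the smallest difference among the 85, 0.502, and probe 17984 had 0.503. Just outside lay probe 16 with 0.499 and probe 11740 with 0.498, both with separate female and male values and an intermediate mixed mean. Probe 16 had an embryo mean of 9.27, well above its female pupal mean of 7.94.

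Heads and abdomens of adult males took no part in the choice of the probes. Between them 26 of the 85 differed (30.6%), 10 higher in heads and 16 higher in abdomens, by limma across all probes. Values of heads and abdomens were separate for 27 of the 85, against 22.2% of all probes. Of all probes 19.1% differed, with 7.57% higher in heads and 11.5% higher in abdomens, and of the probes above the 75th percentile of brightness, which held 75 of the 85, 26.9% did. The share of the 85 was thus near that of bright probes in general. The median heads minus abdomens difference of the 85 was -0.01, against 0.05 for all probes. The male-higher probes stood far from this, with 590 of 632 higher in abdomens and none higher in heads. Scaling to the 75th percentile, under which the median difference of all probes was 0.22 in place of 0.05, called 3 of the 85 higher in heads and 18 higher in abdomens. The share of all probes called under that scaling was not taken, so nothing is read from these counts.

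Probe 13408 had the largest complete difference toward heads. It had 9.62, 9.42, 9.76 and 8.98 in heads and 6.76, 7.17, 6.82 and 6.95 in abdomens, a gap of 2.52 (SE 0.15, limma adjusted p = 1.61e-11). Female pupae had 8.54, 9.04, 8.89 and 8.73, so 3 of the 4 head values lay above all of them. Probe 15970 was second, with 7.64, 8.22, 7.91 and 8.18 in heads and 6.33 to 6.47 in abdomens (1.56, SE 0.19, limma adjusted p = 1.42e-06).

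Probe 5712, chosen here after its values were seen, was larger still but lacked 1 head and 1 abdomen sample with a marked spot. Its heads had 12.10, 12.29 and 12.97, and its female pupae 7.18, 7.69, 8.15 and 7.22. Female replicate 3, at 8.15 the highest female value, shared an array with head replicate 3. Embryo replicate 2, at 7.55 against 5.90 to 6.17 in the other embryos, and abdomen replicate 3, at 7.35 against 5.98 and 5.91, also shared their arrays with heads. The part of the other channel in the female level of this probe was not tested.

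Toward abdomens, probe 5438 followed probe 19691. It had 8.73, 8.38, 8.65 and 8.67 in abdomens and 7.15, 7.42, 7.18 and 7.26 in heads, a difference of -1.35 (SE 0.14, limma adjusted p = 1.24e-07). Its abdomens lay above all female pupae, which ranged from 7.86 to 8.11. With both samples of a shared array left out of the calls, 19 of 19 called members had the same sign on the array of head replicate 1 and abdomen replicate 3. Replicate 2 of heads and replicate 2 of abdomens shared another array, where 18 of 18 measured members had it. Each array held 1 pair of samples in different dyes, and no share over all probes was taken. These counts therefore describe the pairs and are not a test.

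Embryos differed from heads at 32 of the 85 probes (37.6%), 19 higher in embryos and 13 higher in heads. Of all probes 18% passed, made up of 9.68% toward embryos and 8.27% toward heads, and above the 75th percentile of brightness 30.9% did. The values of embryos and heads were separate for 34 of the 85, against 19.1% of all probes. The called embryo-higher members differed by a median of 1.04 and the head-higher ones by a median of -0.83. On the array shared by embryo replicate 2 and head replicate 4, 28 of 28 members called without those samples had the same sign. This too describes 1 pair of samples in different dyes, with no share over all probes. Under scaling to the 75th percentile the median difference of all probes was -0.20, and 16 members were called toward embryos and 9 toward heads. Here too the share of all probes called under that scaling was not taken.

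Probe 17105 had the largest difference toward embryos, with 9.92, 9.84, 9.35 and 9.34 in embryos and 7.74, 7.29, 7.52 and 7.46 in heads (2.11, SE 0.13, limma adjusted p = 5.03e-11). Every embryo value also exceeded every female pupal value, which ran from 7.98 to 8.63. Probe 14121 had 8.74, 8.48, 7.61 and 7.95 in embryos and 6.40 to 6.60 in heads (1.71, SE 0.19, limma adjusted p = 6.11e-07).

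In the opposite direction probe 13408 was lower in embryos than in heads by 2.37 on the log2 scale (log2 embryos minus heads -2.37, SE 0.15, limma adjusted p = 9.79e-11). Probe 16215 had 6.56, 6.42, 6.35 and 6.28 in embryos and 8.49, 8.78, 8.62 and 8.91 in heads, a difference of -2.30 (SE 0.16, limma adjusted p = 3.64e-10). Its female pupal values of 8.36, 8.89, 8.65 and 8.16 overlapped those of heads.

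Embryos differed from abdomens at 36 of the 85 probes (42.4%), 18 in each direction. Of all probes 25.7% passed, made up of 12.6% toward embryos and 13.1% toward abdomens, and above that percentile 41.5% did, so the 85 again stood near the bright probes. Values of embryos and abdomens were separate for 41 of the 85, against 28.2% of all probes. The called members differed by a median of 0.84 toward embryos and -1.01 toward abdomens. The comparison shares its embryo samples with that against heads, and no array held both groups. Probe 17105 was again highest toward embryos, by 2.29 (SE 0.13, limma adjusted p = 6.69e-12), with abdomens at 7.19 to 7.41. Probe 12962 had 8.64, 8.30, 8.24 and 8.37 in embryos and 7.01, 6.83, 6.70 and 6.77 in abdomens (1.56, SE 0.14, limma adjusted p = 9.01e-09).

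Probe 8817 had the largest complete difference toward abdomens, with 6.96, 6.48, 6.23 and 6.28 in embryos and 7.99, 8.30, 7.66 and 8.32 in abdomens (-1.58, SE 0.18, limma adjusted p = 4.76e-07). Its abdomens overlapped both male pupae, at 7.74 to 8.05, and female pupae, at 8.13 to 8.90. Probe 16215 followed with -1.45 (SE 0.16, limma adjusted p = 2.09e-07).

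**Figure D4:**
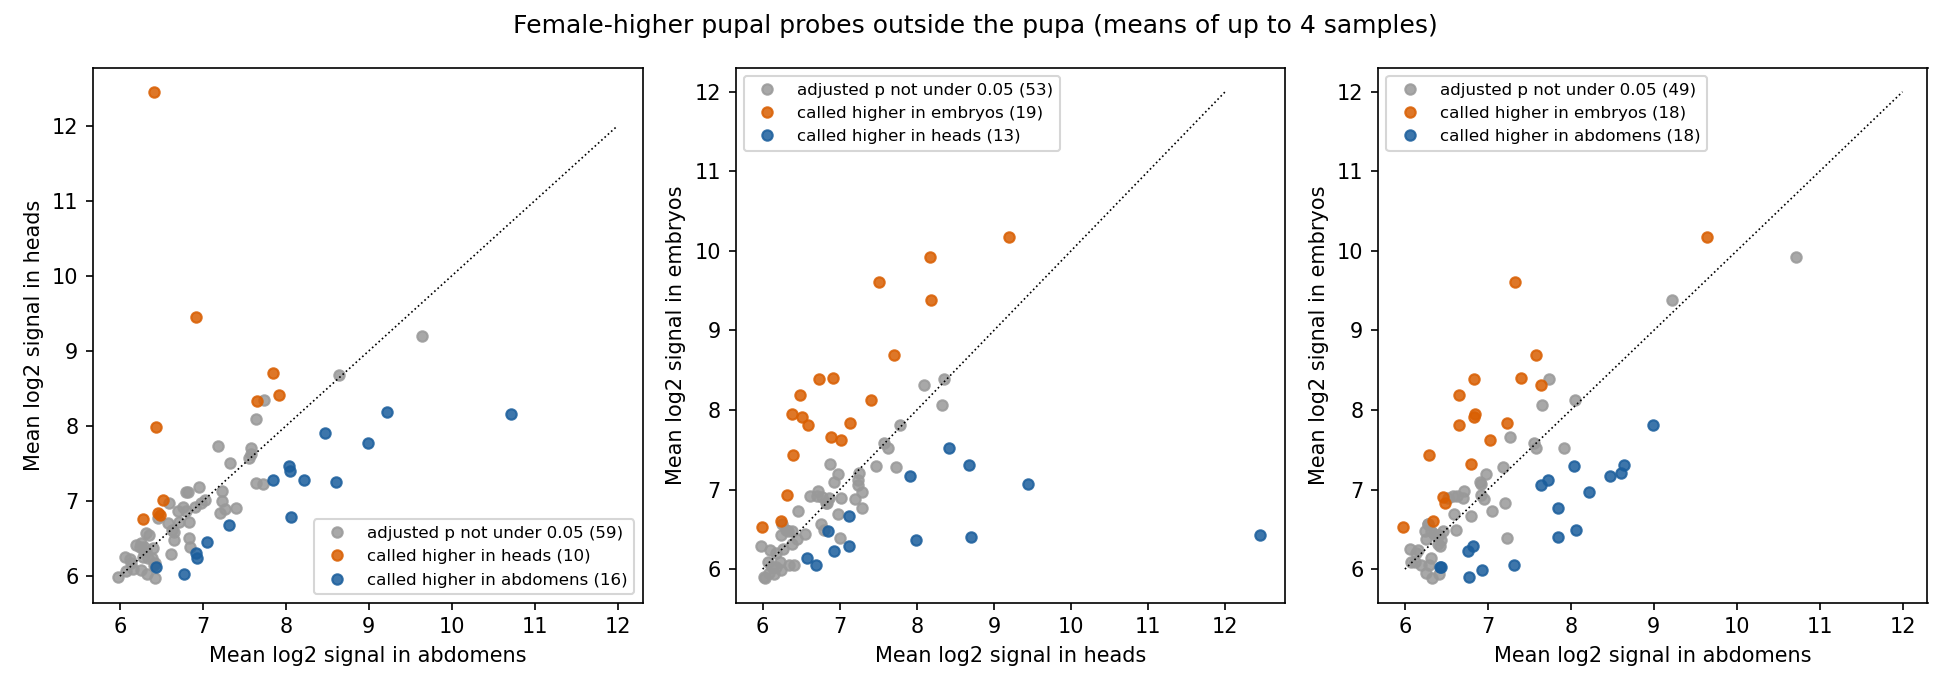
Each point is 1 of the 85 probes, placed by its mean log2 signal in both groups of a comparison, with the line of equal signal dotted. Orange and blue points passed the limma adjusted p of 0.05 in each direction: 10 and 16 for heads against abdomens, 19 and 13 for embryos against heads, and 18 and 18 for embryos against abdomens.

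Across all 6 groups the female pupal mean was the highest for 69 of the 85 probes, which the rule favours. Of the 3 groups outside the pupa, embryos had the highest mean for 37 probes (43.5%), heads for 24 (28.2%) and abdomens for 24 (28.2%), against 40.7%, 35.3% and 24.1% of all probes. Embryos exceeded the female pupal mean at 7 probes, heads at 7 and abdomens at 7. All embryo, head and abdomen values lay below all male pupal values for 28 of the 85, where 1.34% of all probes had this order. The rule sets no level against embryos, heads or abdomens, but it used the male pupal values, so nothing is read from that difference.

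**Figure D5:**
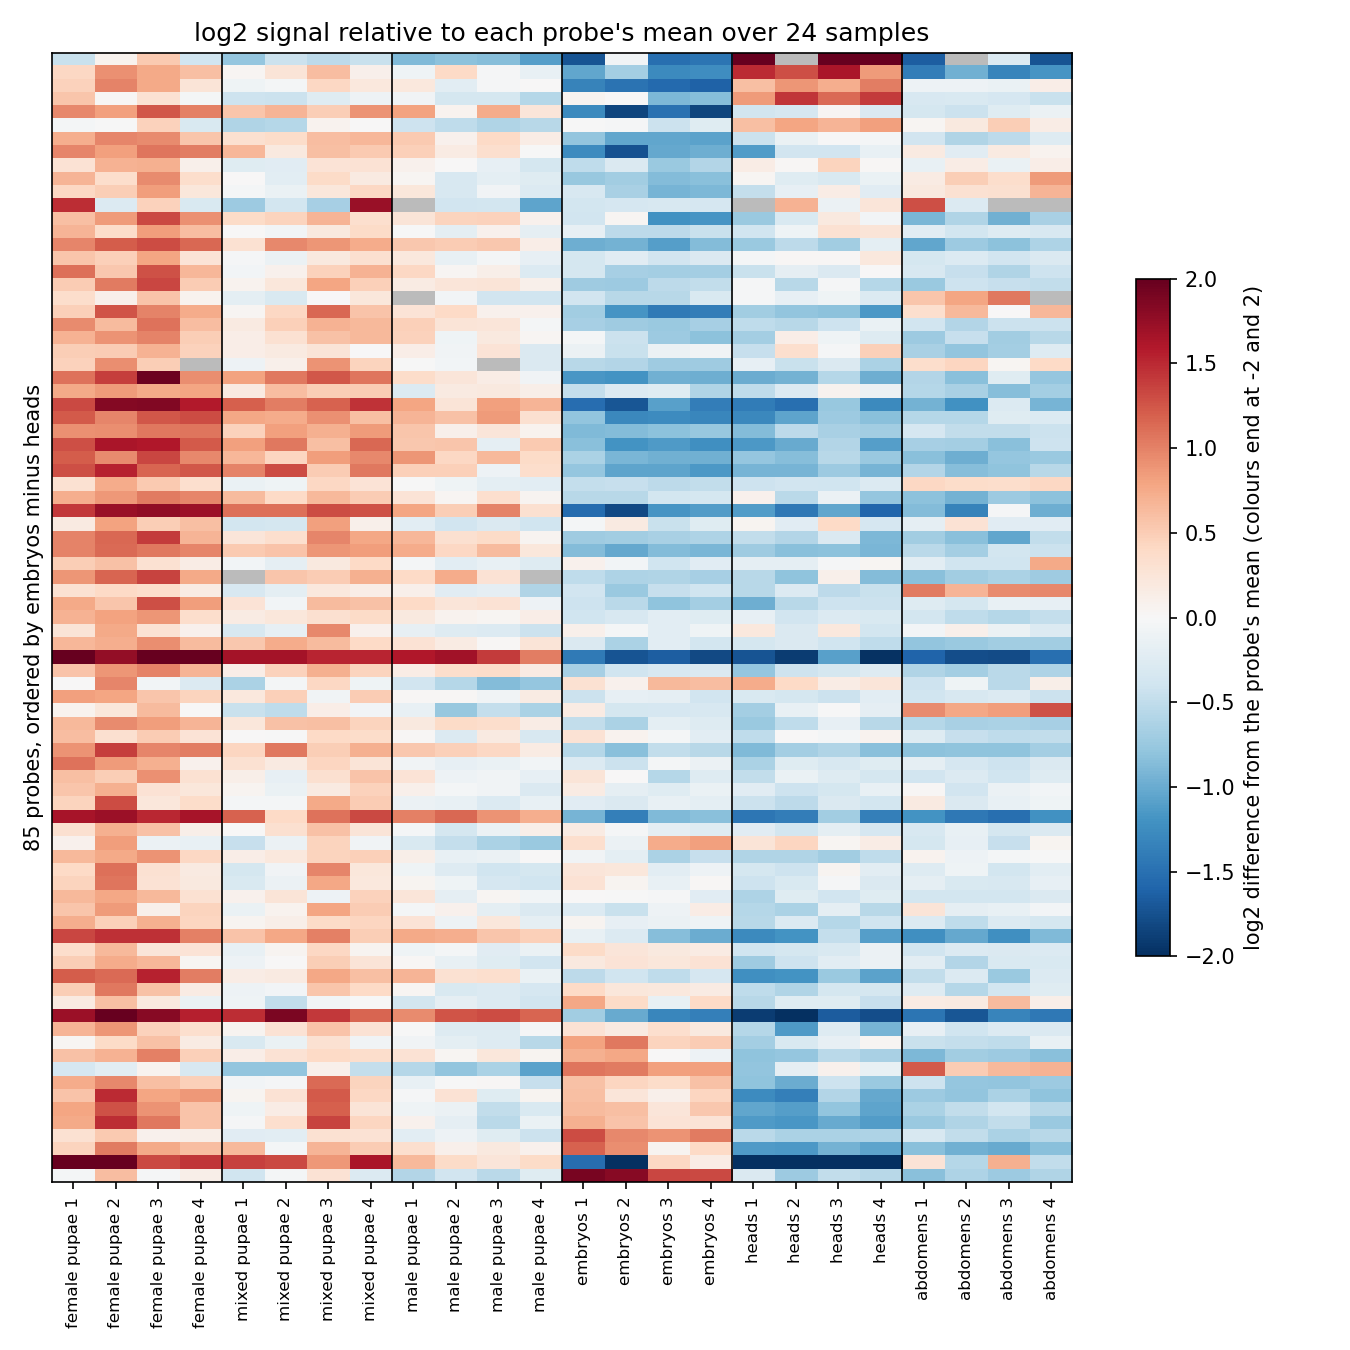
Rows are the 85 probes ordered by embryos minus heads and columns the 24 samples by group, with the colour giving the log2 difference from the probe's own mean, red above and blue below. Grey cells are marked spots that were left out. Female pupal columns are red for nearly all rows, while heads are red for a few probes at the top and embryos for those at the bottom.

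The position of the probes on the array and their marked spots were not part of the rule on sex. Of the 85, 15, 13, 30 and 27 lay in 4 successive blocks of the array's rows, into which all spots fall nearly evenly, and 14, 23, 29 and 19 in 4 such blocks of its columns. The dye term passed the limma threshold at 3 of the 85, probes 11757, 13408 and 17105, against 7.11% of all probes. A marked spot occurred in at least 1 sample for 5 of the 85, which were fitted without those values. Probe 20641, in the first column of the array and named after its values were seen, was 1 of them. It had 8.21, 6.46, 7.20 and 6.42 in female pupae and 8.45 in mixed-sex replicate 4 against 6.01 to 6.36 in the other mixed samples.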

How the data were processed

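The authors deposited, per the file headers, 1 scanner table per sample with mean spot signal and mean and median local background intensity, neither corrected nor normalized, and a mark per spot whose meaning is not given. They also deposited a table on a natural log scale, which equals ln(mean signal - mean background) and was used only as an alternative. The scanner and image software are not stated. mRNA was labelled without amplification, per the series' design text.

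In R 4.3.3 with limma 3.58.1, signal was corrected for median background (normexp, offset 50), marked spots were dropped, and log2 values were quantile normalized over 24 samples. Differences are on this scale, which understates those of dim probes. Detection in a group required 3 or more samples with signal over background by 2 SD, taken over the background of all spots in a sample. One model per probe had a mean per group and a dye term (17 residual degrees of freedom for complete probes), with trended variances and Benjamini-Hochberg adjustment over 22575 probes, called at 0.05. The code was tested on simulated data.

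Named probes were the 6 largest sex differences with the probe most like each, up to 2 per direction and comparison with complete, separate values, those next to the threshold, and the highest and lowest mixing position among members with a difference of at least 1 (probes 8983 and 18946). The members, tests and lists were chosen with earlier results of these data known. The labels tie the replicate numbers to no shared animal or batch. Array brightness classes and their alternatives were added after the data were seen. Planned gene lists were not used, since no table tied spots to genes.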

Additional observations from a re-analysis of the deposited data

Results flagged for a closer look

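For each named probe and group with 4 values, the sample farthest from the other 3 was tested by Dixon's criterion. In 142 tests 10 samples stood apart, and chance gives about 5% of such tests. Among the pupal samples, female replicate 2 had 8.07 at probe 20225 (others 5.92 to 5.97) and 7.55 at probe 20395 (others 6.03 to 6.12), and both probes lie outside the 85. Female replicate 1 had 9.94 at probe 3960 (others 10.24 to 10.29). Male replicate 3 had 6.80 at probe 18946 (others 7.50 to 7.54), and male replicate 4 had 8.48 at probe 20761 (others 8.78 to 8.80).

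Among the adult samples, head replicate 3 had 6.45 at probe 8983 (others 6.02 to 6.06) and 6.22 at probe 1910 (others 6.03). Head replicate 1 had 6.80 at probe 12962 (others 6.70 to 6.71), and head replicate 4 had 7.55 at probe 2637 (others 8.07). Abdomen replicate 4 had 8.03 at probe 16215 (others 7.77 to 7.80). The causes were not tested.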

How the results depend on the processing

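In each alternative the calls outside the pupa were counted over the original 85 and not over the members it chose. These counts therefore cannot be set against the number of members, and they do not cover other choices of members. The number of members, 85, depended on the processing. It was 50 with scaling to the 75th percentile, 235 with plain background subtraction, 271 with an offset of 10, 243 with the deposited natural log values, 8 with a difference of at least 1, and 315 on dim arrays alone without the condition on separate values. Leaving out 1 pupal sample gave 69 to 255, with 239 without female replicate 4 and 255 without male replicate 1. With values adjusted for array brightness and dye it was 61, of which 47 were among the 85. The members called between heads and abdomens numbered 16 at an adjusted p of 0.01 against 26 at 0.05, and 19 to 24 with 1 sample left out. Those between embryos and heads numbered 29 to 34, and between embryos and abdomens 30 to 35, with 1 sample left out. With the replicate number as a block the 3 counts were 25, 32 and 36. Of 60 pairs of samples with the same number 20 had deviations correlated above 0.1. These correlations ran from -0.69 to 0.82 with a median of -0.0055, which cannot show whether the numbers pair samples. With the array as a random block the 3 counts were 34, 37 and 41, and as a fixed block 29, 33 and 35. The median position of the mixed samples was 0.366, from 0.267 to 0.480 with 1 sample left out, and 0.154 with scaling to the 75th percentile. For the probes picked by the largest complete, separate differences in each comparison, those differences kept their direction and call in all 260 alternative values. They were picked for being large and called, so this does not speak for the other called members. Other quoted differences were not tested again, such as those of embryos against heads or abdomens at probes 15032, 15639, 20998 and 3960. Whether the calls near the threshold at probes 20998 and 3960 hold under other processing was therefore not tested. The alternative values of the 6 largest sex differences were held against the SD of each probe's female pupal values. By that limit 123 stayed within it and 3 moved beyond it, all at probe 18946. That probe had the smallest female SD of the 6, 0.21, and so the tightest limit, while its male SD was 0.36. The cause was not tested. Dim probes limit what could be seen, since the offset compresses their differences.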
